A study of Mus musculus with 2 samples.

Results

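Wide H3K4me3 domains at the ends of protein-coding genes were described in mouse prospermatogonia, fetal male germ cells before spermatogonial stages. The domains were chosen by 2 values, width and overlap with a gene end. They were found by joining deposited peaks on chromosomes 1 to 19 over gaps of up to 1000 bp. A domain was kept where it measured at least 2500 bp from its first base to its last and held an annotated end of a protein-coding gene. This gave 1019 domains among 96251 joined domains, 1.06% of all, with 3183 peaks and 2.97 Mb in total. They held 1222 ends of 1186 genes, which is 5.74% of the 20661 protein-coding genes on these chromosomes. The H3K4me3 library came from 130000 Oct-GFP+ prospermatogonia, sorted on an Oct-GFP reporter at embryonic stage E17.5. The assay was CUT&RUN, in which antibody-tethered nuclease cuts free the bound chromatin, whose DNA is then read. The labels give 1 such library and 1 IgG library of the same cells, with no replicate of either, and no file of the IgG library was used here. No strain, genotype or number of embryos is given in the labels. Replicate error is therefore unknown, no test was run, and the values are descriptions with counting intervals. The series concerns TET1 and imprinting control regions, and its labels name no perturbation in these samples.

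H3K4me3 is placed at promoters by the KMT2 and SETD1 methyltransferase complexes, which are drawn to unmethylated CpG-rich DNA. At most active genes it forms a compact island over the start site. In several cell types the broadest islands lie over genes that define the cell or that are transcribed steadily. H3K4 methylation also repels the de novo DNA methylation machinery, which is active in prospermatogonia. Width, peak number, fold and position of the domains all come from the peak list that chose them, so they are given without a test. Promoter sequence, strand and gene length did not enter the choice.

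Promoter sequences of 7 genes with an end in a wide domain are shown as examples of CpG-rich and CpG-poor promoters found there. The richest shown, Kmt2a, has 36 CpG in the full 300 bp window, which is the upper quartile of wide-domain starts, so still richer promoters are not shown. Each is the 250 bases before the start site, from RefSeq (GRCm38.p6, the same build as mm10), 5′ to 3′ on the strand of the gene, with every CpG in capitals. Adamts1, a secreted metalloprotease (chr16:85803114-85803363, minus strand), and Nkx6-2, a homeobox factor of the nervous system (chr7:139582798-139583047, minus strand), belong to domains among the 10 widest. Dazl, a germ cell RNA-binding protein (chr17:50293621-50293870, minus strand), Jun, an immediate early transcription factor (chr4:95052223-95052472, minus strand), and Kmt2a, an H3K4 methyltransferase (chr9:44881290-44881539, minus strand), represent gene groups described further on. Ggn, a testis gene that encodes gametogenetin (chr7:29169960-29170209, plus strand), and Maml2, a Notch coactivator (chr9:13297708-13297957, plus strand), are among those with the fewest CpG.
Adamts1: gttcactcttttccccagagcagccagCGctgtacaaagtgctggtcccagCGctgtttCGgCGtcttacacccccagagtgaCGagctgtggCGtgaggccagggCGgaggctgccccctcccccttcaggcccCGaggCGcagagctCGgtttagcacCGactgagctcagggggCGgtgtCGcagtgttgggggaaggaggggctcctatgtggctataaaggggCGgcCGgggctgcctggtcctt
Nkx6-2: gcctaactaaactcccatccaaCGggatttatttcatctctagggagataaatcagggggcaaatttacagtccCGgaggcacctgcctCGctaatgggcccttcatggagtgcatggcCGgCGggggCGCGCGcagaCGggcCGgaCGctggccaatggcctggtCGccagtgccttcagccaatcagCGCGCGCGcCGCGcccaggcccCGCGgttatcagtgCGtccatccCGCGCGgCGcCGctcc
Dazl: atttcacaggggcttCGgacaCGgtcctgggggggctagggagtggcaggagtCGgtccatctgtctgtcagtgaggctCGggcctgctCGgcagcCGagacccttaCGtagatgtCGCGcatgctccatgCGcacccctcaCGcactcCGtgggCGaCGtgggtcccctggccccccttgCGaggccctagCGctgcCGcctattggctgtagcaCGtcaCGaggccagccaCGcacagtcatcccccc
Jun: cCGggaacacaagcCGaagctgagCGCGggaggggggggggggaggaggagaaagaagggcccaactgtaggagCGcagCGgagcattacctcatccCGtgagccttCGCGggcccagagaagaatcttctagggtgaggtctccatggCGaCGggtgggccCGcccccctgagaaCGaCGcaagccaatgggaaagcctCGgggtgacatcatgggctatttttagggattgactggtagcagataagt
Kmt2a: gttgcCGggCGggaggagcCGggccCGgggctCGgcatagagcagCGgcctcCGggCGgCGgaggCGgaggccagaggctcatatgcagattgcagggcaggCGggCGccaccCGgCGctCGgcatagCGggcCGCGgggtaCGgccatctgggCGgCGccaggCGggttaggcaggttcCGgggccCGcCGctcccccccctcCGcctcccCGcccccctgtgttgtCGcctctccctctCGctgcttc
Ggn: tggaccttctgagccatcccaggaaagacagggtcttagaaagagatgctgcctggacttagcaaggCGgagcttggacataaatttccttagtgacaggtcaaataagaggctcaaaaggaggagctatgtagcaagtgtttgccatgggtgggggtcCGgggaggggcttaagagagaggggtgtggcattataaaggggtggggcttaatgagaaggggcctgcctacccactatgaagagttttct
Maml2: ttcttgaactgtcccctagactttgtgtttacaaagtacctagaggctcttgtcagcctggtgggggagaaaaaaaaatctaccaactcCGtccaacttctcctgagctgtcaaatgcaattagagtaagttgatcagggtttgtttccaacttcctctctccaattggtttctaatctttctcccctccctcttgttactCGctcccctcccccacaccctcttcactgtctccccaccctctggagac
In the printed stretch, Kmt2a had 29 CpG, Nkx6-2 26, Dazl 20 and Adamts1 and Jun 15 each, while Ggn and Maml2 had 2 each. The domains of these genes measured 3723 bp at Kmt2a, 4179 bp at Nkx6-2, 3147 bp at Dazl, 4296 bp at Adamts1, 3812 bp at Jun, 2718 bp at Ggn, shared with Spred3, and 2582 bp at Maml2. A CpG-poor promoter therefore did occur inside a wide domain, and the CpG count did not rank these domains by width. Such promoters were rare: of 1004 start sites in wide domains, 25 (2.49%) had 5 or fewer CpG in the full window. In narrower domains the share was 6.15%.

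Few of the domains were unbroken. A wide domain at a gene end consisted of 3 peaks in the median (quartiles 2 to 4, range 1 to 7), and 990 of 1019 (97.2%) were made of at least 2. Peaks covered 74.1% of the domain in the median, and the 2164 gaps inside domains had a median of 290.5 bp (quartiles 155.75 to 539). The median width was 2782 bp (quartiles 2620 to 3072.5) and the highest 4971 bp. Most lay close to the minimum: 714 were under 3000 bp wide, 210 were from 3000 to under 3500 bp and 95 measured 3500 bp or more. Just inside the minimum lay the domains of Fgf8 at 2501 bp and of Ccl21b and Rap1gds1 at 2502 bp each. Just outside it, at 2499 bp each, lay domains at Aplp2, Ctcf, Plk5, Rimbp3 and Zfp609. The 2500 bp limit thus cuts through a continuous range of widths.

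The widest domain lay at Fst, which encodes follistatin, an activin-binding protein (chr13:114455935-114460905). Its 5 peaks had summit pileups, the number of fragments stacked at the summit, of 49, 31, 51, 36 and 41 in order of coordinate. The highest pileup, 51, has a 95% Poisson interval of 38 to 67.1, which covers counting error only. The other pileups carry counting error of their own, and differences between these summits were not tested. Only 39.6% of its 4971 bp lay in peaks. Adgrl2, an adhesion receptor of synapses, followed with 7 peaks over 4716 bp, and Esrp1, an epithelial splicing regulator, with 6 peaks over 4658 bp. Arid2, a subunit of a SWI/SNF chromatin remodeller, had 6 peaks over 4582 bp, a domain that also held an end of the predicted gene Gm38469. Adamts1, the circadian repressor gene Bhlhe41, Nkx6-2, Nxph1 for a synaptic ligand, Spaca6 for a sperm membrane protein and Epha4 for an ephrin receptor completed the 10 widest, at 4147 to 4296 bp. The widest domains of other chromosomes included those at Banp (4130 bp), Kif26a (4087 bp), Cbln2 (4072 bp), Lzts2 (4066 bp), Lhx6 (4036 bp), Fat3 (3792 bp), Nat8l (3657 bp), Prtn3 (3641 bp) and Dock5 (3501 bp). A peak lay over the annotated gene end itself in 4 of the 10 widest domains.

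**Figure D1:**
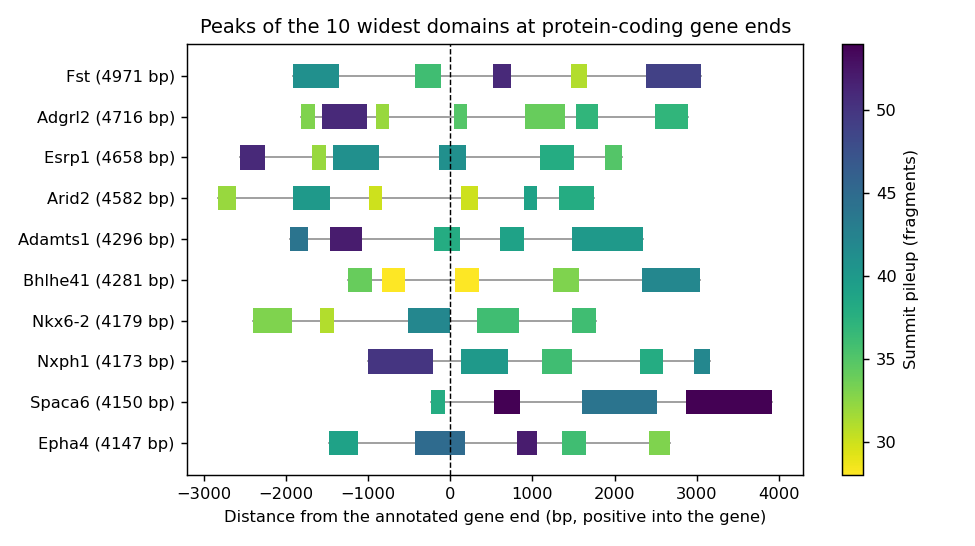
Peaks (bars) of the 10 widest domains at protein-coding gene ends, by distance in bp from the annotated gene end (dashed line, positive into the gene), coloured by summit pileup in fragments; grey lines join the peaks of a domain. Each domain is a row of short peaks on either side of the end, and in 4 of 10 a peak lies over the end.

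Unbroken wide domains were the exception, with 29 made of 1 peak. The widest of these lay at Trim9, a brain ubiquitin ligase, with 2972 bp and 47 fragments, at Mob3b, of the MOB kinase adaptor family, with 2929 bp and 62 fragments, and at Kcnc2, a potassium channel, with 2916 bp and 48 fragments. At the other extreme, 105 domains had at least 5 peaks, and the 2 with 7 peaks lay at Adgrl2 and at the forkhead factor gene Foxq1. Domains with 5 peaks had a median width of 3462 bp and were covered to 62.1%, and those with 2 peaks 2658 bp and 78.9%. Wider domains were thus rows of more and smaller peaks: the widest peak of a domain measured 865 bp in the median at 3500 bp and over, and 1138 bp below 3000 bp.

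The wide domains were chosen by extent, and in height they were close to narrower ones. Their highest pileup had a median of 45 fragments (quartiles 41 to 50, range 25 to 103), against 42 (38 to 47) in the 10891 narrower domains at protein-coding gene ends. It is the maximum over a median of 3 peaks in wide and 1 in narrower domains, so it does not compare single peaks. A pileup of 38 fragments, the 10th percentile of the wide domains, was reached by 76.9% of the narrower ones. The fold, which is the pileup over the local background of the peak caller, went the other way, with a median highest fold of 4.57 in wide domains and 6.33 in narrower ones. The local background was 9.20 fragments in wide domains and 5.90 in narrower ones. The widest single peak of a domain had a median of 1084 bp in wide domains and 1221 bp in narrower ones. Peaks covered 74.1% of wide and 100% of narrower domains in the median. Across the 1019 wide domains, width had a Spearman correlation of -0.495 with the highest fold, 0.495 with the background and 0.0762 with the highest pileup. Across the 10891 narrower domains at gene ends these were -0.361, 0.480 and 0.267, all read from 1 peak list. Fold is computed from pileup and background, so these correlations are not independent of each other. No source used here gives the library behind the background. Whether it counts fragments of the domain itself, which would tie it to width, is not known. The part of the background in the lower fold and in the gaps between peaks was not tested.

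**Figure D2:**
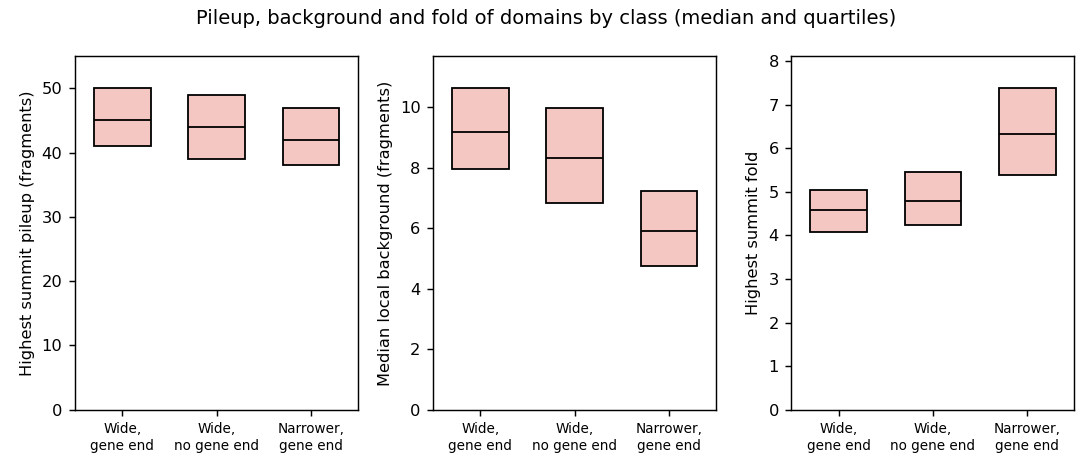
Highest summit pileup (fragments), median local background (fragments) and highest summit fold of wide domains at gene ends, wide domains without a gene end and narrower domains at gene ends; boxes are quartiles and lines medians. Pileup medians lie between 42 and 45 in the 3 classes, while the median fold is 4.57 in wide domains at gene ends and 6.33 in narrower ones.

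Among themselves the wide domains ranged in highest fold from 2.69 to 8.60. The lowest folds belonged to Cdh11 (2.69, 48 fragments), a cadherin of mesenchymal cells, Tril (2.81, 44 fragments), Foxf1 (2.82, 41 fragments), Tbx18 (2.91, 54 fragments) and Grid1 (2.99, 40 fragments). Foxf1 and Tbx18 are mesodermal transcription factor genes, and Grid1 encodes a synaptic glutamate receptor subunit. The highest were Gm3264 (8.60, 87 fragments), Fgl1 (8.31, 50 fragments), Pcnx (7.84, 46 fragments), Gm40847 (7.24, 63 fragments) and Iqsec1 (7.13, 68 fragments). Fgl1 encodes a secreted liver protein, and Gm3264 and Gm40847 are predicted genes. Repeated sequence was not filtered, and its part in the values of predicted genes was not tested. Low folds went with high backgrounds, which enter the fold as its divisor. The background was 17.05 fragments at Cdh11 and 18.03 at Tbx18, and 5.16 at Fgl1 and 5.04 at Pcnx.

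Wide domains at gene ends lay at 5′ ends. A strand could be given to 924 of the 1222 ends from the RefSeq promoter table, and 860 of these (93.1%, Wilson interval 91.3 to 94.5) were 5′ ends. In narrower domains the 5′ share was 93.9% (93.4 to 94.3), so the intervals overlap. An annotated start site of a protein-coding gene lay in 732 of the 1019 domains. Of all wide domains, 65.4% (63.0 to 67.7) held a protein-coding gene end, the property that defines these domains, against 6.68% with the ends moved by 100 kb. For all joined domains of any width the share was 12.4%, and 1.62% of joined domains were wide. A further 132 wide domains held an annotated start but no outermost annotated end of a gene. Cdk6, a cyclin-dependent kinase (3483 bp), Rbpj, the DNA-binding factor of Notch signalling (3424 bp), and Runx3 (3512 bp) were such cases, named after their values were seen.

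Around the start site, wide domains reached farther into the gene than away from it. In the 628 wide domains with 1 start-site gene, the downstream arm had a median of 1715 bp (quartiles 1298.5 to 2120.5) and the upstream arm 1098 bp (755 to 1537.5). The downstream arm was the longer in 69.7% (Wilson interval 66.0 to 73.2), against 73.9% (72.9 to 74.9) of 7413 such narrower domains, whose arms had medians of 910 and 627 bp. Both arms were thus longer, in a ratio close to that of narrower domains. With domains of several start-site genes included, the downstream arm was the longer at 61.0% of 840 starts in wide domains (57.6 to 64.2). In narrower domains this was 68.6% of 8909 starts (67.6 to 69.5). For each gene the 5′-most start in the domain was used, which favours a longer downstream arm. Single genes departed from the median arms in either direction. Lzts2, a tumour suppressor gene of the Wnt pathway, had 3852 bp downstream and 213 bp upstream, and Lhx6, a homeobox factor of interneurons, 3441 and 594 bp. Kif26a, an atypical kinesin, had 1121 bp downstream and 2965 bp upstream, and Sycp3, a synaptonemal complex protein, 212 and 2981 bp.

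The start site itself lay in a peak in 403 of 628 wide domains (64.2%, Wilson interval 60.3 to 67.8) and in 6624 of 7413 narrower ones (89.4%, 88.6 to 90.0). Coverage of wide domains had a maximum of 74.2% at 300 bp upstream, a low of 61.5% at 50 bp downstream and a second maximum of 69.7% at 800 bp downstream. Narrower domains had their maximum, 90.0%, at 50 bp upstream. At 1500 bp downstream 51.3% of wide and 6.10% of narrower domains had a peak. The summit of highest pileup lay downstream of the start in 48.2% of wide domains (44.4 to 52.2), at a median position of -51 bp with quartiles of -543.5 and 968.5 bp (negative is upstream). Strong summits thus stood on either side of the start. At Jun, where a peak covered the start and had the highest pileup, summits lay at 1059, -85, -1117 and -1540 bp with 38, 43, 31 and 37 fragments.

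**Figure D3:**
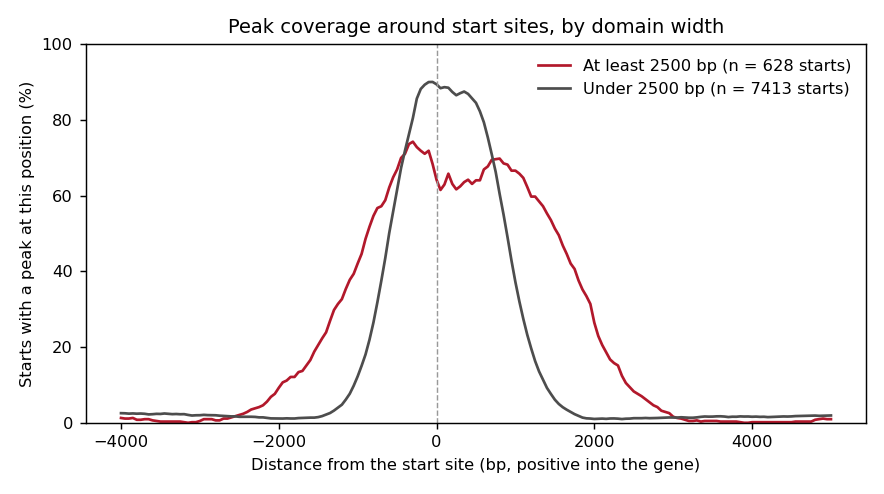
Share of start sites (%) with a peak at each distance in bp from the start (positive into the gene), for 628 wide domains (red) and 7413 narrower domains (grey) with 1 start-site gene. The wide curve has 2 shoulders, 74.2% and 69.7%, around a low of 61.5%, and the narrower curve a single top of 90.0%.

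Some wide domains held no start site in the promoter table, which gave starts for 894 of the 1186 genes. In 12 domains every end was a 3′ end and no annotated protein-coding start lay inside. The widest were at Otp, a homeobox factor of the hypothalamus (3993 bp), at Cdkn2a, which encodes the cell cycle inhibitors p16 and p19 (3964 bp), and at Prtn3, a neutrophil protease (3641 bp). Cdkn2a and the brain protein gene Basp1 had a wide domain at either end. The domain at the 3′ end of Cdkn2a (chr4:89272909-89276872) had 5 peaks and 46 fragments, and the one at its 5′ end (chr4:89293599-89296123) measured 2525 bp with 4 peaks and 46 fragments. At Basp1 the 3′ domain measured 2846 bp and the 5′ domain 3335 bp. These pairs lay 20146 bp apart at Cdkn2a and 50487 bp apart at Basp1, end to end of the gene.

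Most wide domains at gene ends held an end of a single gene. The part of shared domains in the width was not tested. In 857 domains 1 gene had an end, in 155 there were 2 and in 7 there were 3, so 15.9% held 2 or more, against 11.3% of narrower domains. Among the 155, the strand of a gene was not known in 45, and 88 held 5′ ends of genes on opposite strands, with a median width of 2797 bp, close to that of all wide domains. Of the 7 domains with 3 genes, 3 were clusters of replication-dependent histone genes: H2ac23, H2bc23 and H4c17 (3289 bp), H2ac20, H2ac21 and H2bc21 (3005 bp), and H2ac11, H2bc11 and H4c9 (2938 bp). Of the 1186 genes, 34 had both ends in the same domain. Histone genes, the immediate early gene Ier3 and the homeobox genes Nkx2-9 and Tlx2 were among them. An end of a long noncoding RNA gene lay in 195 wide domains (19.1%, Wilson interval 16.8 to 21.7) and in 10.3% of narrower ones at gene ends (9.78 to 10.9), against 4.02% of wide and 2.12% of narrower domains with these ends moved by 100 kb. Wide domains without a protein-coding gene end had nearly the same share, 18.7% (15.7 to 22.2).

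The promoters in wide domains were richer in CpG than those in narrower ones. The promoter table gave start sites for 894 of the 1186 genes, with none on chromosome 18, where 44 of the domains lie. Over the 1004 start sites inside wide domains, the 300 bp window around the start had a median of 26 CpG (quartiles 17 to 36), against 20 (13 to 28) at 11888 starts in narrower domains and 3 (1 to 5) at 7030 starts in no domain. Windows with 20 or more CpG made up 67.1% (Wilson interval 64.2 to 70.0) in wide and 53.4% (52.6 to 54.3) in narrower domains, and 37.1% of all 20084 starts. The GC content had medians of 65.8% in wide and 61.3% in narrower domains. Wide domains without a gene end had 25 CpG at their 162 starts, close to the value at gene ends. CpG did not grow with width among the wide domains, with medians of 26, 25 and 26 in the 3 width classes from narrow to wide. The 27 starts in unbroken domains had a median of 15.

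**Figure D4:**
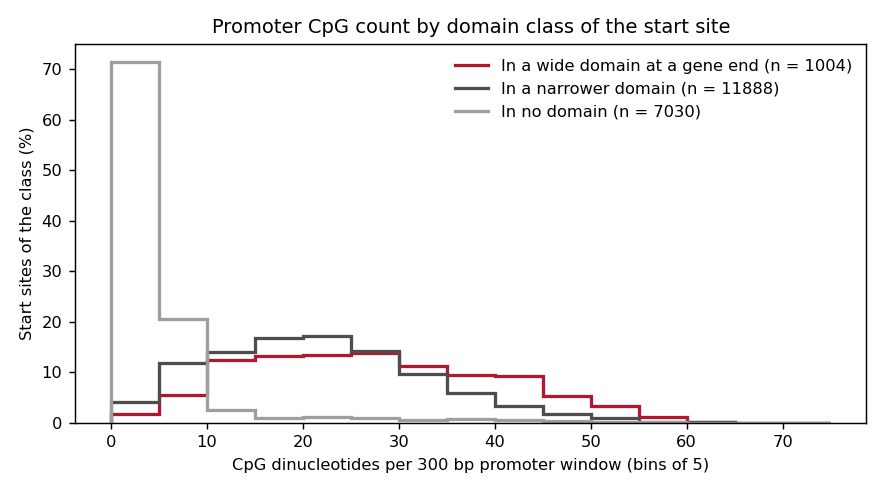
Distribution of CpG counts per 300 bp promoter window (bins of 5, share of starts in %) for start sites in wide domains at gene ends (red), in narrower domains (dark grey) and in no domain (light grey). The medians are 26, 20 and 3 CpG.

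Short motifs were counted on either strand of the same 300 bp windows. GGGCGG, the GC box of SP and KLF factors, was in 74.2% of wide-domain windows (Wilson interval 71.4 to 76.8) and 64.8% of narrower-domain windows (63.9 to 65.6), against 47% of all windows. CCGGAAG, an ETS factor motif, was in 12.6% of wide-domain windows (10.7 to 14.8) and 18.04% of narrower-domain windows (17.4 to 18.7), against 11.9% of all. Both motifs hold a CpG, and of these 2 the GC box had the higher share in wide domains and the ETS motif in narrower ones. TATAAA was in 5.78% of wide-domain and 6.56% of narrower-domain windows (12.7% of all). CCAAT was in 35.3% of wide-domain and 38.3% of narrower-domain windows (38.1% of all), and CACGTG in 9.76% of wide-domain and 10.1% of narrower-domain windows (7.89% of all). For these 3 the intervals of wide and narrower domains overlap. A match is a run of letters and not a bound site.

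Genes with an end in a wide domain were long. Their median length was 40690.5 bp, against 21979.5 bp for genes with an end in narrower domains alone and 17491 bp for all protein-coding genes. Genes of at least 100000 bp made up 29.2% of those in wide domains, 12.1% of those in narrower domains alone and 11.2% of all. Csmd3, Grin2a and Fat3, named after their values were seen, were genes of this length, with domains of 3951, 3845 and 3792 bp. By chromosome, the share of protein-coding genes with an end in a wide domain ran from 4.32% on chromosome 2 to 11.6% on chromosome 12, with 9.22% on chromosome 18.

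Gene groups were described by 28 lists with 569 different genes on these chromosomes, of which 90 (15.8%) reached into wide domains with an end. The lists were chosen with earlier results of these data known, membership was fixed by width, and the share of all protein-coding genes was 5.74%, so the counts are descriptions. Beside them stands the share with an end in a domain of any width, 62.9% of all protein-coding genes.

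The FGF and MAP kinase list, a pathway that carries growth signals to the nucleus, had the highest count, 11 of 26 genes (42.3%), with 92.3% in a domain of any width. It included the ligands Fgf8 (2501 bp) and Fgf10 (2635 bp), the receptors Fgfr2 (2832 bp) and Fgfr3 (2848 bp) and the small GTPase Hras (2618 bp). Feedback inhibitors of the pathway were among the members, with Spred1 at 3753 bp, Dusp6 at 3060 bp, Spry4 at 3015 bp and Spred2 at 2589 bp. So were the ETS factor genes Etv1 at 3685 bp and Etv5 at 3185 bp, whose transcription the pathway induces. Related genes of the list were not: Spry1 (1842 bp) and Etv4 (2322 bp) had narrower domains, and Spry2 and Dusp4 had none at an end. The median of the widest domain over this list was 2174.5 bp, against 1253 bp over all protein-coding genes.

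Other signalling lists had lower counts. In the TGF-beta, activin and BMP list the count was 7 of 30. Besides Fst these were the activin subunit gene Inhbb (3758 bp) and the ligands Tgfb1 (3488 bp, shared with B9d2) and Bmp2 (3208 bp). The receptors Bmpr2 (2810 bp) and Tgfbr1 (2651 bp) and the transducer Smad3 (2780 bp) completed the count. The Wnt list had 6 of 26, with the receptors Fzd7 (3476 bp) and Fzd2 (3407 bp) and the kinase Gsk3b (3305 bp) the widest, followed by Tcf7, Wnt3a and Ctnnb1 at 2554 to 2897 bp. The Notch list had 4 of 20, among them the ligand Jag1 (3790 bp) and the receptor Notch1 (2928 bp). The others were the effectors Hey1 (3342 bp, shared with LOC115489673) and Hey2 (2697 bp). Ligands, receptors and nuclear effectors were thus all represented.

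Germ line genes were described by stage. Of 20 germ cell identity genes 6 reached into wide domains: Trim71 (3515 bp), Prdm1 (3292 bp), Dazl (3147 bp), Lin28a (2982 bp), Prdm14 (2734 bp) and Dppa3 (2584 bp). Prdm1 and Prdm14 specify primordial germ cells, Lin28a and Trim71 act in the let-7 microRNA pathway, and Dppa3 protects DNA methylation in the egg. The domain of Dazl had 4 peaks with 23, 30, 30 and 34 fragments, low among wide domains, and that of Prdm1 3 peaks with 48, 30 and 50. An annotated start of Prdm1 lay in a different wide domain, of 2967 bp, which held no protein-coding gene end. Of 21 spermatogonial genes 6 had one: Eomes (3587 bp), Foxo1 (3528 bp), Gfra1 (3199 bp), Etv5 (3185 bp), Zbtb16 (2974 bp) and Id4 (2536 bp). Gfra1 encodes the GDNF receptor of spermatogonial stem cells, and the others are transcription regulators of self-renewal. The other germ line lists had shares whose Wilson intervals hold the 5.74% of all protein-coding genes. In the meiosis list 2 of 28 had one (7.14%, interval 1.98 to 22.6), Sycp3 (3194 bp) and Rec114 (2747 bp, in a domain shared with the channel gene Hcn4). The piRNA list had 0 of 23 (upper limit 14.3%) and the spermiogenesis list 0 of 25 (upper limit 13.3%), with 78.3% and 48% in a domain of any width. The pluripotency list had 1 of 16 (6.25%, interval 1.11 to 28.3), Tbx3 (2578 bp). Differences between these lists were not tested.

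Chromatin genes were represented at several steps. In the H3K4 and H3K27 list the count was 5 of 18: the H3K4 methyltransferases Kmt2a (3723 bp), Kmt2c (3467 bp) and Kmt2b (2532 bp), the H3K27 demethylase Kdm6b (3408 bp) and the H3K27 methyltransferase Ezh2 (2578 bp). Kmt2a, on chr9:44879665-44883387, had 6 peaks with 36, 46, 39, 34, 39 and 32 fragments in order of coordinate. The domain of Kmt2b was shared with Zbtb32, and that of Kdm6b with Dnah2. The chromatin remodelling list had 5 of 19, with Smarca2 (3721 bp), Chd1 (2747 bp), Smarca5 (2618 bp) and Smarca4 (2538 bp) after Arid2. The DNA methylation list had 3 of 17, the 5-methylcytosine oxidases Tet2 (2567 bp) and Tet1 (2547 bp) and the corepressor Trim28 (2525 bp), in a domain shared with Gm31649. Tet1, the enzyme the series is about, had 2 peaks, of which the wider measured 2117 bp, and a highest pileup of 46 fragments.

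Immediate early and stress genes, which are induced within minutes of a stimulus, had 7 of 25. Jun (3812 bp), Egr1 (3632 bp), the heat shock gene Hspa1a (2969 bp) and Fos (2968 bp) led, followed by its neighbour Hspa1b (2838 bp), Ier3 (2763 bp) and Klf2 (2676 bp). Hspa1a shared its domain with Hspa1l. Hspa1a and Hspa1b are near-identical copies, so the assignment of fragments between them is uncertain. The cells were freshly sorted, and the part of sorting in these values was not tested. Splicing factors had 5 of 22, led by U2af2 (3068 bp, shared with Ccdc106), Srsf1 (2993 bp) and Hnrnpk (2959 bp, shared with Rmi1). Hnrnpa2b1 (2701 bp) and Ptbp1 (2507 bp) followed. The mRNA regulators had 3 of 24, Ago2 of the microRNA machinery (3852 bp), Igf2bp2 (3007 bp) and Lin28a. The Wilson interval of that list, 4.34 to 31.0, held the 5.74% of all protein-coding genes.

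Cell cycle genes had 2 of 21, E2f3 (3629 bp) and Ccne2 (2586 bp), with Cdk6 and Ccnd3 having a start site in a wide domain but no annotated end. CDK inhibitors and the retinoblastoma family had 3 of 10: Cdkn2a, Cdkn1c (2847 bp) and Cdkn2c (2843 bp). Developmental transcription factors outside the Hox clusters had 4 of 39, Gli3 (3425 bp), Pax8 (3077 bp), Tbx3 and Gli2 (2535 bp), and 43.6% were in a domain of any width. The Hox list had 3 of 16, Hoxb9 (3251 bp), Hoxb4 (3043 bp) and Hoxa13 (2586 bp). For cell cycle genes (2.65 to 28.9) and developmental factors outside the Hox clusters (4.06 to 23.6) the Wilson intervals held 5.74%. That is the share of all protein-coding genes, and the intervals of ribosomal protein and respiration genes also held it. Of 23 ribosomal protein genes 22 had an end in a domain, but 1, Rpl7 (3058 bp), in a wide one, shared with Rdh10. Of 19 genes of mitochondrial respiration 16 had an end in a domain and 0 in a wide one.

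Imprinted loci had several wide domains. In the list of maternally methylated loci 5 of 16 protein-coding genes had an end in one, but these were 3 domains, since Peg3 and Usp29 shared one (3491 bp) and Peg10 and Sgce another (3337 bp). Gnas had the third (2842 bp), at its outermost annotated end. Another wide domain, of 3012 bp, held an annotated start of Gnas but no outermost gene end. Whether these domains lie over the methylated elements of their loci was not examined. The domain of Peg3 and Usp29 had 5 peaks with 50, 44, 50, 55 and 44 fragments. In the paternally methylated list Rasgrf1 (3106 bp) and Zdbf2 (3020 bp) were the 2 of 6. At Zdbf2 the peak at the start had 39 fragments and the 3 peaks upstream of it 22 to 24. The list does not separate the parental alleles.

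Markers of other cells of the fetal testis were counted in the same way. Sertoli markers had an end in a wide domain in 0 of 16 cases (upper Wilson limit 19.4%), Leydig and interstitial markers in 1 of 14 and endothelial and blood markers in 1 of 17. The 2 genes were Gli1 (3623 bp), a Hedgehog target, and Flt1 (2949 bp), a VEGF receptor. Genes of other organs had 0 of 25 (upper limit 13.3%). The Wilson intervals of these lists all held the 5.74% of all protein-coding genes. In a domain of any width the shares were 50%, 42.9%, 52.9% and 44%. For germ cell identity genes that share was 85%, and for all protein-coding genes 62.9%. A share of other cells in the sort was not tested.

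**Figure D5:**
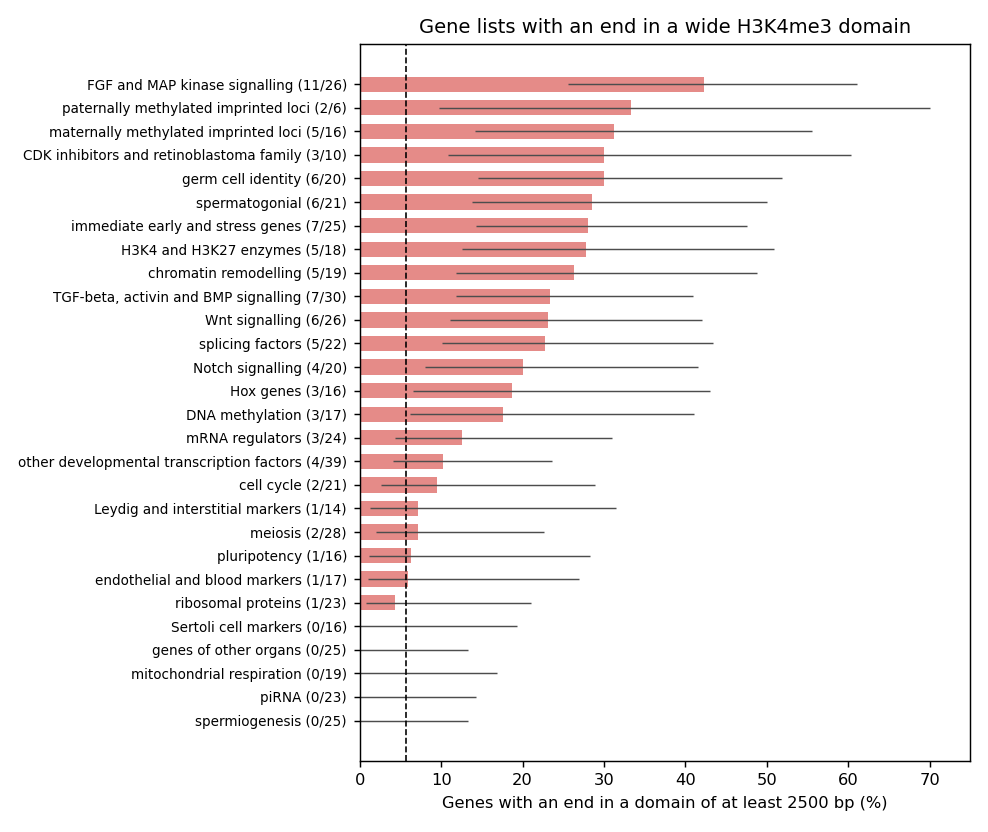
Share (%) of each gene list with an end in a wide domain (bars), with the 95% Wilson interval of the count (lines), and the counts beside the list names; the dashed line is the share of all protein-coding genes, 5.74%. FGF and MAP kinase genes lead with 11 of 26, and 5 lists have 0.

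These counts depend on the limits that define a wide domain. With a join gap of 500 bp there were 494 such domains and with a minimum of 3000 bp 305, so a single gene near 2500 bp is in or out by small differences.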

How the data were processed

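The authors deposited a peak list of the H3K4me3 library in mm10. It gives, per the file's columns, for each of 135064 peaks a score, a fold enrichment at the summit (a ratio of pileup to local background), and −log10 p and −log10 q. The tools named per the submitters' processing notes are MACS2 2.1.0, deepTools 3.5.1, Bowtie2 2.5.0, Trim Galore, bedtools 2.27.1 and SAMtools 1.16.1, and the builds mm10 and sacCer3. Neither roles nor settings are given there. The deposited score was not used.

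The 122479 peaks on chromosomes 1 to 19 were joined and assigned gene ends from RefSeq (GRCm38.p6). Start sites and strand came from the RefSeq promoter table, which covers 250 bp before to 50 bp after each start of 16456 genes. Summit pileup and background were solved from fold and −log10 p, taking the fold as pileup plus 1 over background plus 1 and p as a Poisson tail. Of all peaks, 135053 were solved within 0.0001 of −log10 p, with 0 unsolved in wide domains. Local background is the caller's own estimate, from a library that no source used here names, so fold is enrichment over that estimate. The total number of fragments is unknown, so depth could not be set. Fragments carry no molecular identifiers. Intervals (95%, Wilson or exact Poisson) cover counting error only. Several genes and ends can share a domain and neighbouring genes are not independent, so intervals over genes are descriptive.

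The domains and lists were chosen with earlier results of these data known. Named genes were the 10 widest domains, the widest per chromosome, those with most genes, up to 3 per list, 5 on either side of the width minimum and 5 at either extreme of fold. Other names were chosen after their values were seen. A few domains that the rule names are not reported here. Remaining list members with a wide domain are given as the account of each list. Alternatives covered join gaps, width minimums, stricter peaks, wider end windows and predicted genes. Scripts were tested on simulated data. Software was scipy 1.17.1, pandas 2.3.3, matplotlib 3.10.9, numpy 2.4.6 and Python 3.11.15. The deposited peak names carry the letters IgG, but how that library entered peak calling is not given. Which library the background and fold rest on is therefore not known. No file of the IgG library was used.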

Additional observations from a re-analysis of the deposited data

Results flagged for a closer look

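Chromosomes X and Y lie outside the choice of chromosomes 1 to 19. By the same joining and width limit, 27 wide domains held a protein-coding gene end on chromosome X and 1 on chromosome Y, outside the main measurement. The 28 X-linked genes with an end in one were 2.90% of 966 (Wilson interval 2.01 to 4.16), against 5.74% of genes on chromosomes 1 to 19. The widest lay at Tenm1, a teneurin adhesion gene, with 3654 bp and 5 peaks, and at Pou3f4, a POU homeobox gene, with 3379 bp and 6 peaks. The difference between the chromosomes was not tested.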

How the results depend on the processing

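The number of wide domains at gene ends, 1019, and of genes with an end in one, 1186, moved most with the limits. Without joining they were 29 and 31, with a gap of 500 bp 494 and 578, and with a gap of 3000 bp 2438 and 2971. A minimum of 2000 bp gave 3128 and 3604, a minimum of 3000 bp 305 and 359, and peaks with −log10 q of at least 10 gave 311 and 366. Where peak folds had to reach 3 they were 710 and 825. The share of wide domains with a gene end, 65.4%, was 69.0%, 71.3% and 37.7% at gaps of 0, 500 and 3000 bp, 60.8% and 73.5% at 2000 and 3000 bp, and 68.9% with ends within 500 bp counted. The median width, 2782 bp, was 2664, 2717 and 3488 bp at those gaps, 2318 and 3315 bp at those minimums, 2678 bp with the stricter −log10 q and 2727 bp where peak folds had to reach 3. The median highest fold, 4.57, was 5.18 and 4.06 at the minimums of 2000 and 3000 bp, 4.80 with the stricter −log10 q and 4.69 where peak folds had to reach 3. The median number of peaks, 3, was 1 without joining, 2 and 4 at the minimums of 2000 and 3000 bp, and 2 with the stricter −log10 q. A changed minimum sets the widths by construction, and the cause of the other shifts was not tested. The longer side of a domain lay inside the gene at 72.0% of ends, and at 80.4% in domains with 1 end. The CpG median of narrower domains, 20, was 19 for genes without another gene end within 5000 bp, where that of wide domains was 27. Leaving out predicted genes, or peaks with under 20 fragments (an alternative chosen after seeing the data), kept 1005 and 1012 domains. No paired analysis was possible because there is 1 library per group. Without replicates or total depth, differences between single domains cannot be set against biological spread.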

Other observations

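Families that share a symbol stem, gathered after the data were seen, gave further groups in wide domains. Of 19 Adamts genes, which encode secreted metalloproteases of the extracellular matrix, 7 had an end in one: Adamts1, Adamts2, Adamts3, Adamts5, Adamts6, Adamts15 and Adamts19. Adamts1 and Adamts5 are neighbours on chromosome 16, and their domains measured 4296 and 3276 bp with 52 and 57 fragments. The others measured 2529 to 2944 bp. Of 8 Kmt genes 4 had one, with Kmt2e (3370 bp, 56 fragments) beside Kmt2a, Kmt2b and Kmt2c. Of 13 Hspa genes 5 had one, including Hspa2 (3345 bp), a chaperone needed in male meiosis. Of 40 Zbtb genes, zinc finger repressors, 8 had one, and Zbtb1 and Zbtb25 shared theirs (3154 bp).

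Pou4f2 (3820 bp), Pou2f2 (3403 bp), Pou3f1 (3274 bp) and Pou2f1 (2978 bp) were 4 of 15 Pou genes. Kif26a (4087 bp) and Kif26b (3899 bp) led 6 of 37 kinesin genes. Of 11 genes with the stem Hs, 4 had a wide domain, all for heparan sulfate sulfotransferases, at 2514 to 2559 bp. Of 388 Zfp genes 10 had one, 2.58%, and of 362 Slc transporter genes 18, 4.97%, beside 5.74% of all protein-coding genes. As families were picked for their counts, these are descriptions.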
